A study of Mus musculus with 4 samples.

Results

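The microRNAs (miRNAs) described here are the mature arms of 2 gene clusters, miR-23a/27a/24-2 and miR-23b/27b/24-1. They are 10 of the 1900 names in the deposited miRNA count table, chosen by name as the 5p and 3p arms of these hairpins. MiR-24-3p, the main arm of miR-24, was left out because its position overlaps another name and its counts are all 0. The data were small RNA libraries made after RNA immunoprecipitation for Argonaute2 (AGO2) from freshly dissected olfactory bulb of C57BL/6 mice. The GFP-AGO2 group (n = 2, labelled replicates 1 and 3) received the viral vector LV.PGK.GFP-AGO2, and its bulbs were taken 8 weeks later. The Control group (n = 2, also replicates 1 and 3) was sham-injected, carries no vector in the labels and was collected at the same time of 8 weeks. The labels name whole bulb tissue, while the design text of the series speaks of newborn neurons, and no source used here gives the age or sex of the mice, the antibody or the injection site. It is therefore not known whether Control holds miRNAs on endogenous AGO2 or RNA carried through without it, and every change below is relative to Control.

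MiRNAs of a cluster are made from 1 long primary transcript, which is cut into hairpins and then into short duplexes. AGO2 keeps 1 strand of each duplex, the guide, and uses its seed (bases 2 to 8) to find target RNAs, while the other strand is usually discarded. The miR-23, miR-27 and miR-24 genes are present as a pair of copies in mammals. They are known from endothelial cells, where they act in vessel growth, from lymphocytes and from fat cells, where miR-27 restrains adipogenesis, and miR-23 has been described as enriched in cultured astrocytes.

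The arms are shown here because their seeds decide which of them can be expected to pair with the same targets, and because near-identical copies limit how reads can be assigned. The sequences are from RefSeq (GRCm38.p6), which held 9 of the 10 members; miR-23b-3p was not matched. Capitals mark the seed.
mmu-miR-27b-3p: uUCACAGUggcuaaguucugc
mmu-miR-27a-3p: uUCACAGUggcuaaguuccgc
mmu-miR-23a-3p: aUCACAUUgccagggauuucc
mmu-miR-23b-5p: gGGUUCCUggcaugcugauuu
mmu-miR-23a-5p: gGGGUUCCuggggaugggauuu
mmu-miR-27b-5p: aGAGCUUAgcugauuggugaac
mmu-miR-27a-5p: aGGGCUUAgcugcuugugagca
mmu-miR-24-1-5p: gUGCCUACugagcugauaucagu
mmu-miR-24-2-5p: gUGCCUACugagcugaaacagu
The 9 sequences carry 7 different seeds. MiR-27a-3p and miR-27b-3p share theirs and differ at 1 of 21 bases, C19U, with positions counted from the 5′ end of miR-27a-3p. A read that ends before base 19 therefore cannot tell them apart, and their split is uncertain to that extent. The 5p arms of mir-27 differ at 8 of 22 bases, 1 of them in the seed (G3A). The seed of miR-23a-3p opens with the same letters, UCACA, as that of miR-27. No other mature name in the RefSeq table has the seed of any of these 9 arms at bases 2 to 8. MiR-23b-3p, the copy of miR-23a-3p, is missing from that table, so its seed could not be compared. How far reads can tell this pair apart is not known either. MiR-128-3p, outside the clusters, opens at base 1 with UCACAGUG, the 8 bases that start at base 2 of miR-27b-3p. Its seed is thus the miR-27 seed shifted by 1 base, and the seeds are not without near matches.

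Both clusters lie on the plus strand of mm10. The 23b cluster spans 781 bases on chromosome 13, from 63300492 to 63301272, inside the protein-coding gene 2010111I01Rik. MiR-23b-5p (63300492 to 63300512) and miR-23b-3p (63300529 to 63300549) are intronic, while miR-27b-5p (63300718 to 63300739), miR-27b-3p (63300760 to 63300780) and miR-24-1-5p (63301213 to 63301235) fall in an annotated exon of that gene. Fancc is annotated over the same stretch on the minus strand, with no exon there. The 23a cluster spans 370 bases on chromosome 8, from 84208527 to 84208896, with no gene other than the miRNAs annotated over it. Its arms are miR-23a-5p (84208527 to 84208548), miR-23a-3p (84208563 to 84208583), miR-27a-5p (84208685 to 84208706), miR-27a-3p (84208727 to 84208747) and miR-24-2-5p (84208839 to 84208860).

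**Figure D1:**
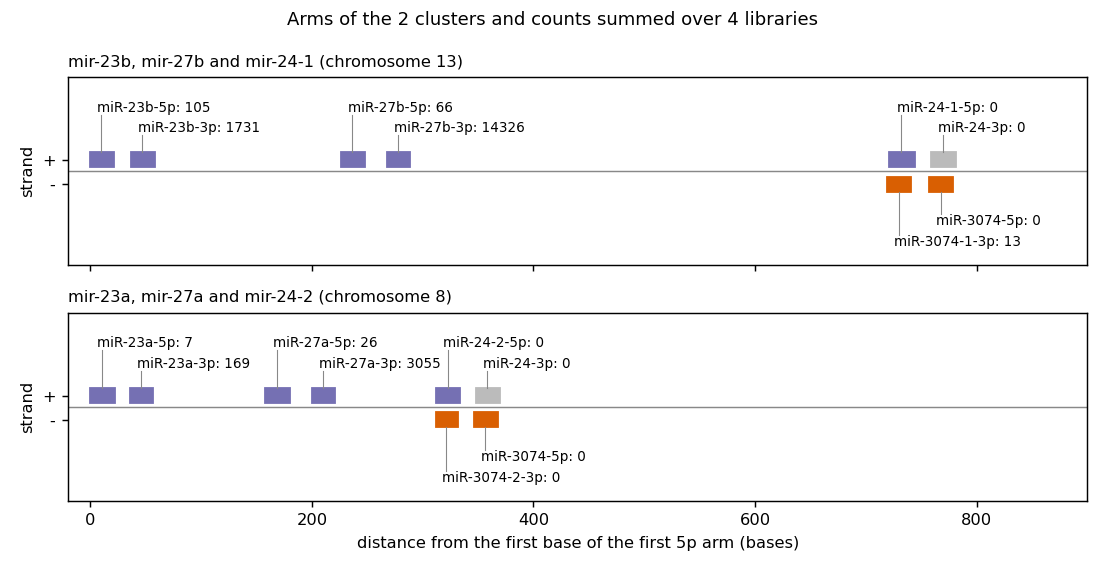
Arms of both clusters drawn to scale, by distance in bases from the first base of the first 5p arm; purple boxes are the 10 members, grey boxes miR-24-3p, orange boxes miR-3074 names on the minus strand. The number beside each name is its count summed over the 4 libraries: miR-27b-3p has 14326 and miR-27a-3p 3055, while every miR-24 arm has 0 and lies across from a miR-3074 name.

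Neither miR-24 5p arm had a count in any library, and neither did miR-24-3p. The hairpins are printed to show why these zeros were not read as absence. Capitals mark the bases under a miR-3074 name on the minus strand, a few of which lie outside the miR-24 arms.
mir-24-1 (chr13:63301208-63301275, plus strand): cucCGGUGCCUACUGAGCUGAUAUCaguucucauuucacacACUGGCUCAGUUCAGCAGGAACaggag
mir-24-2 (chr8:84208815-84208921, plus strand): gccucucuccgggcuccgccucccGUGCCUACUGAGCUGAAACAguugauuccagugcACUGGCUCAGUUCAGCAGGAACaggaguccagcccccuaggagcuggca
Each miR-24 arm shares 20 bases with a miR-3074 arm. The counting command in the file header has no strand option and no option for reads that overlap more than 1 name, and by its default such reads are not assigned. Of the 75 names that overlap another in the whole series, 64 had no count, against 730 of the 1825 others. Among the miR-3074 names, miR-3074-1-3p had 10 counts in Control replicate 1, 3 in Control replicate 3 and none in GFP-AGO2, and the others had none. Of its 22 bases, 20 are shared with miR-24-1-5p, and by the same default a read counted for it cannot touch those 20. Its counts were thus not read as the mature miRNA. MiR-24 is therefore not described further, and the clusters are represented by miR-23 and miR-27.

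Library totals ranged from 673916 to 1006861 miRNA counts in Control and from 1858354 to 2809758 in GFP-AGO2, with 714 to 843 names detected. Nothing in the labels says that the replicates are different mice, so each p-value rests on a spread between libraries that may be technical. Levels are given in the usual CPM unit, the counts being scaled by TMM library sizes. A read covers a whole mature miRNA of 21 to 23 bases, so levels were not scaled by length; ligation and amplification can still favour one sequence over another.

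The 3p arms made up nearly all of the signal, and miR-27b-3p dominated in every library. The 10 members took 0.2636% of the miRNA counts in Control replicate 1 (95% exact Clopper-Pearson interval 0.2537 to 0.2738) and 0.2117% in Control replicate 3 (0.2009 to 0.223). They took 0.3468% in GFP-AGO2 replicate 1 (0.3399 to 0.3537) and 0.3046% in GFP-AGO2 replicate 3 (0.2968 to 0.3127). Both GFP-AGO2 values exceeded both Control values, by 0.088 percentage points on average. The intervals cover counting error only, since PCR copies are counted as separate reads. The denominator matters here: miRNAs of epithelium and olfactory sensory neurons, from the miR-183 cluster and the miR-200 family, took 22.98% to 23.44% of the Control counts and 2.558% to 4.998% of the GFP-AGO2 counts. With the miR-200 and miR-183 names left out of the total, the members took 0.346% and 0.276% in Control and 0.356% and 0.321% in GFP-AGO2, and the groups overlapped.

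MiR-27b-3p, the most abundant member, had 1807 counts in Control replicate 1 and 925 in Control replicate 3, against 7426 in GFP-AGO2 replicate 1 and 4168 in GFP-AGO2 replicate 3. In CPM these were 1878 and 1527 against 2499 and 2045. The GFP-AGO2 pair lay wholly above the Control pair, with group means of 2272 ± 321 and 1703 ± 248 CPM (SD, n = 2 each). It ranked 54th and 62nd among all names in Control and 44th and 54th in GFP-AGO2. The fold change was 1.33 (95% interval of the fit 0.971 to 1.83), which did not pass edgeR's quasi-likelihood test (log2 fold change 0.42, SE 0.18, Benjamini-Hochberg adjusted p = 0.136). It was called higher with no low-count filter (0.657, edgeR adjusted p = 0.0046). In that setting the log2 fold changes of the 457 tested miRNAs moved by a median of 0.24, so the higher value is not particular to miR-27b-3p. It was also called without GFP-AGO2 replicate 3 (0.552), while without Control replicate 3 the log2 fold change was 0.24. Over the alternatives that kept all 4 libraries the adjusted p ran from 0.0046 to 0.222.

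MiR-27a-3p, its copy from chromosome 8, had 477 and 249 counts in Control replicates 1 and 3, against 1445 and 884 for GFP-AGO2, or 496 and 411 CPM against 486 and 434 CPM. The libraries of the groups overlapped in CPM. The means were 453 ± 60.0 CPM for Control and 460 ± 37.2 CPM for GFP-AGO2 (SD, n = 2 each), and the log2 fold change was 0.02 (SE 0.17, edgeR adjusted p = 0.952). Its sign changed in 3 of the alternatives. The 95% interval of the fold change, 0.749 to 1.37, leaves room for a modest change in either direction.

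MiR-23b-3p, the upstream neighbour of miR-27b-3p, had a difference of the opposite sign, also short of the threshold. It had 288 and 207 counts in Control and 745 and 491 in GFP-AGO2, which gave 299 and 342 CPM in Control and 251 and 241 CPM in GFP-AGO2. Both GFP-AGO2 libraries lay below both Control libraries, at means of 246 ± 6.93 and 321 ± 29.9 CPM (SD, n = 2 each). The log2 fold change of -0.38 (SE 0.16) did not pass the edgeR test (adjusted p = 0.129), nor did it in any alternative, where the adjusted p ran from 0.0504 to 0.79. The 95% interval of the fold change was 0.578 to 1.02.

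MiR-23a-3p was the least abundant of the 3p arms, with 40 and 17 counts in Control and 51 and 61 in GFP-AGO2. Its levels were 41.6 and 28.1 CPM in Control against 17.2 and 29.9 CPM in GFP-AGO2, so that the groups overlapped and the replicates of each group lay far apart. The log2 fold change was -0.59 (SE 0.45, edgeR adjusted p = 0.362), and leaving out 1 GFP-AGO2 library moved it to -1.033 (replicate 3 left out) or -0.236 (replicate 1 left out), and leaving out Control replicate 1 moved it to -0.215.

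**Figure D2:**
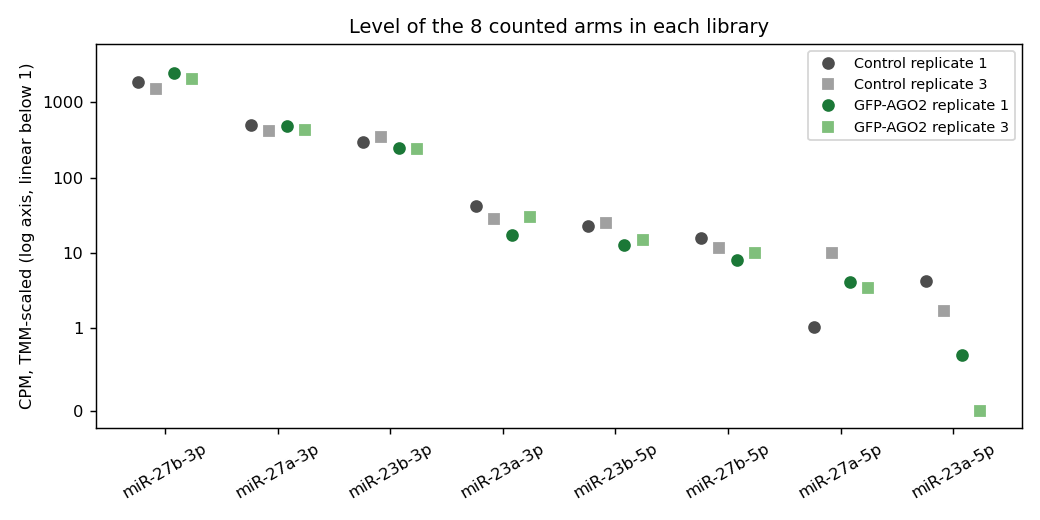
Level of the 8 arms with counts, in CPM on a log axis that is linear below 1; circles are replicate 1 and squares replicate 3, grey for Control and green for GFP-AGO2. MiR-27b-3p lies at 1527 to 2499 CPM, miR-27a-3p and miR-23b-3p between 241 and 496, and miR-23a-3p and all 5p arms below 50.

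The order of levels was the same in both groups for the 4 arms at the top: miR-27b-3p, miR-27a-3p, miR-23b-3p and miR-23a-3p. Each of these exceeded the next in every library, but in Control replicate 3 the counting intervals of miR-27a-3p and miR-23b-3p overlapped. MiR-23a-3p was also above miR-23b-5p in every library, but their counting intervals overlapped in all libraries other than GFP-AGO2 replicate 3, and in Control replicate 3 the levels were 28.1 against 24.8 CPM. MiR-23b-5p in turn exceeded miR-27b-5p in each library, but their counting intervals overlapped in every one.

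The 5p arms, the strands mostly discarded from these hairpins, were rare. MiR-23b-5p had 22, 15, 38 and 30 counts in Control replicates 1 and 3 and GFP-AGO2 replicates 1 and 3, which gave 22.9 and 24.8 CPM against 12.8 and 14.7. Both GFP-AGO2 libraries were below both Control libraries, with a log2 fold change of -0.79 (SE 0.41, edgeR adjusted p = 0.195). MiR-27b-5p had 15, 7, 24 and 20 counts in the same order, or 15.6 and 11.6 CPM against 8.08 and 9.81. In CPM its groups did not overlap either, and its log2 fold change was -0.62 (SE 0.51, edgeR adjusted p = 0.397). Neither difference passed the test, and both rest on few counts.

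MiR-27a-5p and miR-23a-5p did not pass the low-count filter and were not tested. MiR-27a-5p had 1 and 6 counts in Control and 12 and 7 in GFP-AGO2, and miR-23a-5p had 4 and 1 in Control and 2 and 0 in GFP-AGO2. The count of 0 of 1858354 in GFP-AGO2 replicate 3 allows a share of up to 0.000161% as 3 counts of the total, or 0.000199% by the 95% exact interval.

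None of the 6 members tested was called in either direction at an adjusted p under 0.05, and none had an unadjusted p under 0.05. Of all 457 miRNAs tested, 34.4% were called, 17.3% as higher and 17.1% as lower. For 1 of the 6 the GFP-AGO2 pair lay wholly above the Control pair and for 3 wholly below; over all tested miRNAs these shares were 36.8% and 35.2%, or 72% together. The members' median log2 fold change was -0.48, against -0.01 for all tested miRNAs, and the median of their absolute values was 0.50 against 0.84. With total counts in place of TMM scaling, the median of all tested miRNAs moved by 0.215 and no member was called. MiR-27b-3p was then at 0.624 (edgeR adjusted p = 0.0551) and miR-23b-3p at -0.164 (edgeR adjusted p = 0.472). The overlaps also depend on the scaling. By percent of all counts miR-27a-3p lay wholly above Control, at 0.0514% and 0.0476% against 0.0474% and 0.0369%. MiR-27b-5p overlapped by that measure, at 0.000854% and 0.00108% against 0.00149% and 0.00104% in Control.

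**Figure D3:**
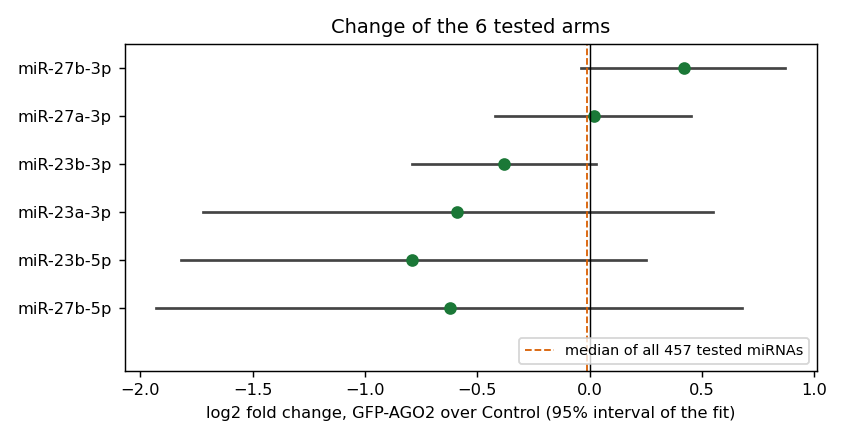
Log2 fold change of GFP-AGO2 over Control for the 6 tested arms (points) with the 95% interval of the fit (lines); the dashed line is the median of all 457 tested miRNAs. Every interval includes 0, from miR-27b-3p at 0.42 to miR-23b-5p at -0.79.

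Ratios between members do not depend on how libraries are scaled, so 8 of them were compared: between the copies, between neighbours of a cluster and between the arms of a hairpin. With 2 libraries against 2 the exact two-sided permutation test cannot go below p = 0.333, and no ratio could pass. The ratios share members and are not independent.

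The neighbours miR-27b-3p and miR-23b-3p were further apart in GFP-AGO2. The count of miR-27b-3p was 6.27 times that of miR-23b-3p in Control replicate 1 (95% exact interval 5.54 to 7.13) and 4.47 times in Control replicate 3 (3.84 to 5.22). It was 9.97 times in GFP-AGO2 replicate 1 (9.24 to 10.8) and 8.49 times in GFP-AGO2 replicate 3 (7.73 to 9.34). The groups did not overlap, nor did the counting intervals of any Control library and any GFP-AGO2 library. The intervals of the Control libraries did not overlap each other either, so libraries of 1 group differed by more than counting error. Separate counting intervals therefore do not show a difference between the groups. The mean log2 ratio was 2.40 ± 0.347 for Control and 3.20 ± 0.164 for GFP-AGO2 (SD, n = 2 each), a difference of 0.80 (exact permutation p = 0.333, adjusted over the 8 ratios p = 0.444). It lay between 0.553 and 1.043 when each library was left out in turn. On chromosome 8 the ratio of miR-27a-3p to miR-23a-3p was 11.9 and 14.6 in Control and 28.3 and 14.5 in GFP-AGO2. GFP-AGO2 replicate 3 lay at the level of Control replicate 3, and the counting intervals of 8.96 to 25.5 and 11.2 to 19.1 overlapped. The difference of 0.63 in mean log2 ratio (exact permutation p = 0.333) fell to 0.15 without GFP-AGO2 replicate 1.

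Between the copies, miR-27b-3p exceeded miR-27a-3p by 3.79 and 3.71 times in Control and by 5.14 and 4.71 times in GFP-AGO2. The mean log2 ratios were 1.91 ± 0.0207 and 2.30 ± 0.088 (SD, n = 2 each; difference 0.39, exact permutation p = 0.333). The counting intervals of Control (3.42 to 4.2 and 3.23 to 4.29) lay below those of GFP-AGO2 (4.86 to 5.44 and 4.38 to 5.08). Such intervals leave out the spread between libraries. MiR-23b-3p exceeded miR-23a-3p by 7.20 and 12.2 times in Control and by 14.6 and 8.05 times in GFP-AGO2. These overlapped between the groups (difference of mean log2 ratios 0.23, exact permutation p = 0.667). The split of reads between the miR-23 copies is uncertain, as their sequences were not compared. With the few counts of miR-23a-3p, its level and this ratio are open to that uncertainty. Of all counts of the 10 members, the chromosome 13 cluster held 80.6% ± 0.424 for Control and 83.8% ± 0.919 for GFP-AGO2 (SD, n = 2 each). The sign of the miR-23 ratio changed without Control replicate 1 or GFP-AGO2 replicate 1.

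**Figure D4:**
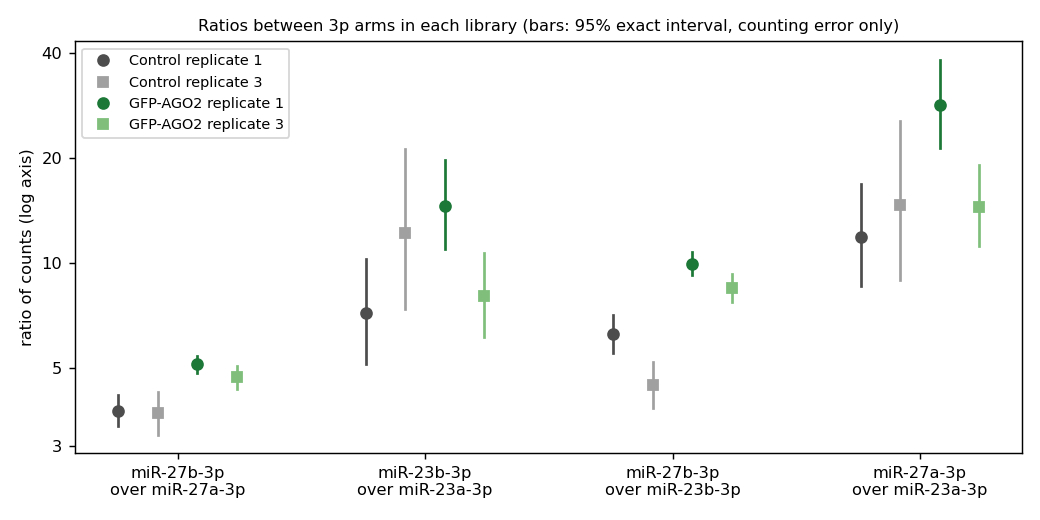
Ratio of counts between 3p arms in each library (log axis), with 95% exact intervals that cover counting error only; colours and symbols mark group and replicate. For miR-27b-3p over miR-27a-3p and over miR-23b-3p both green points lie above both grey ones, at 5.14 and 4.71 and at 9.97 and 8.49.

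The arms of mir-27 are shown in their hairpins because the share of the 5p arm was lower in both GFP-AGO2 libraries for mir-27b. The same held for mir-23b and mir-23a, so mir-27b is not set apart by it. Hairpins outside the clusters were not compared, so lower 5p shares may be general to these libraries. Capitals mark the 5p and the 3p arm as counted.
mir-27b (chr13:63300712-63300784, plus strand): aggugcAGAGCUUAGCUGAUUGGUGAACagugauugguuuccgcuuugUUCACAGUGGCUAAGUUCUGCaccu
mir-27a (chr8:84208672-84208758, plus strand): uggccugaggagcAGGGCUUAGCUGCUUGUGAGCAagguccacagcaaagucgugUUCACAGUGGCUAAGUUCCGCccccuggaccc
In mir-27b the 5p arm took 0.823% and 0.751% of the counts of both arms in Control and 0.322% and 0.478% in GFP-AGO2, so both GFP-AGO2 libraries were lower. The difference in mean log2 arm ratio was -1.05 (exact permutation p = 0.333). It rests on 22 counts of the 5p arm in Control and 44 in GFP-AGO2, and the 95% exact intervals of the libraries overlapped (0.461 to 1.35 and 0.302 to 1.54 in Control, 0.207 to 0.479 and 0.292 to 0.737 in GFP-AGO2). In mir-23b the 5p arm took 7.10% and 6.76% in Control and 4.85% and 5.76% in GFP-AGO2, a difference of -0.43 in mean log2 ratio (exact permutation p = 0.333). The exact intervals of these libraries overlapped as well. In mir-27a it took 0.209% and 2.35% in Control and 0.824% and 0.786% in GFP-AGO2, where the groups overlapped and the sign turned to 1.447 without Control replicate 3. In mir-23a, with 0 to 4 counts of the 5p arm in a library, it took 9.09% and 5.56% in Control and 3.77% and 0% in GFP-AGO2, where the 0 of 61 allows up to 5.87% by the exact interval. In every library the 5p share was higher in mir-23b than in mir-27b.

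**Figure D5:**
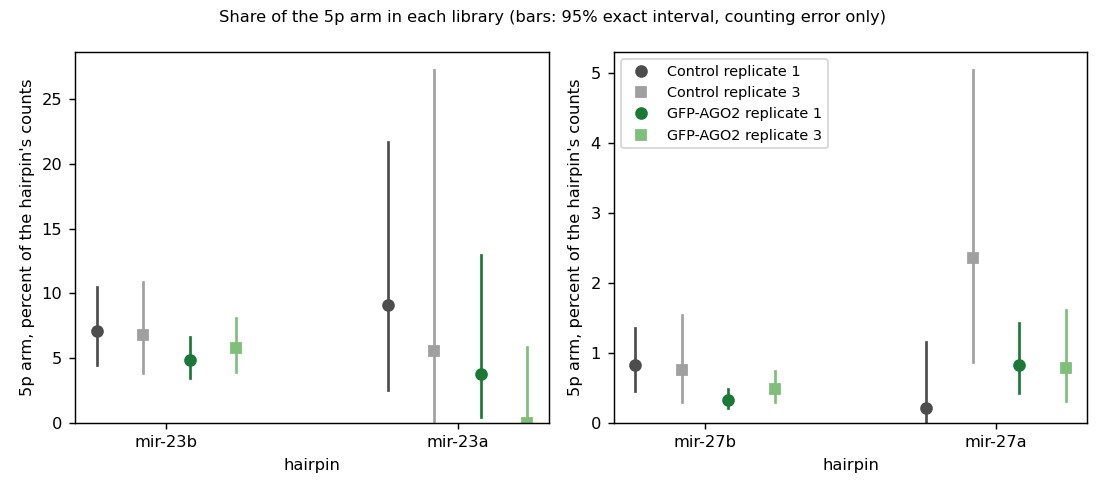
Share of the 5p arm in the counts of its hairpin, in percent, for mir-23b and mir-23a (left) and mir-27b and mir-27a (right, on another scale); bars are 95% exact intervals for counting error only. In mir-27b the Control libraries sit at 0.823% and 0.751% and the GFP-AGO2 libraries at 0.322% and 0.478%, with wide intervals throughout.

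Likeness of pattern was measured as the Euclidean distance between log2 CPM values, each centred on its mean over the 4 libraries, against 451 tested miRNAs outside the clusters. Nearest to miR-27b-3p were miR-192-5p (distance 0.176), miR-25-3p (0.217) and miR-181d-5p (0.225). For miR-192-5p the groups overlapped, at 259 and 203 CPM in Control and 293 and 258 in GFP-AGO2. They overlapped for miR-25-3p too, at 437 and 362 against 503 and 415 CPM. For miR-181d-5p they did not, with 842 and 834 CPM in Control and 1140 and 959 in GFP-AGO2. Nearest to miR-23b-5p, the tested member with the largest change in absolute terms, were miR-328-3p (0.0893), miR-323-5p (0.0976) and miR-541-5p (0.156). MiR-328-3p fell from 12925 and 12944 CPM to 7451 and 8545 CPM (log2 fold change -0.69, SE 0.13, edgeR adjusted p = 0.0132). MiR-323-5p (-0.82, SE 0.18, edgeR adjusted p = 0.0206) and miR-541-5p (-0.63, SE 0.14, edgeR adjusted p = 0.0207) were called lower as well. MiR-23b-5p itself was not called. With 4 libraries such distances describe these libraries only.

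Lists of miRNAs known from other cell types were read in the same libraries, against the 17.3% of all tested miRNAs that were called higher and the 17.1% called lower. The list for vessels, blood and immune cells took 0.4889% and 0.3575% of Control counts and 0.03595% and 0.1687% in GFP-AGO2, and of its 5 tested names 3 were called lower and none higher (median log2 fold change -2.29). The list for astrocytes and other glia took 7.774% and 7.364% in Control and 10.75% and 10.31% in GFP-AGO2, but with 1 of 6 tested names called lower, none higher and a median log2 fold change of -0.09 its calls were near the background. The neuronal list took 1.586% and 1.805% in Control and 2.23% and 2.013% in GFP-AGO2, with 2 of 9 called higher and 1 lower (median log2 fold change 0.15), also near the background.

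The shares of these lists, like those of the members, move with the epithelial and sensory names in the total. With the miR-200 and miR-183 names left out of the total, a denominator chosen for these lists after seeing the data, the neuronal list took 2.085% and 2.357% in Control and 2.29% and 2.121% in GFP-AGO2, and the groups overlapped. The glial list then took 10.22% and 9.614% against 11.04% and 10.87%, and the vessel, blood and immune list 0.6427% and 0.4667% against 0.03691% and 0.1778%. Of the 12 vessel, blood and immune names in the table, 3 were at 0 in every library: miR-126a-3p, which marks endothelium, miR-126a-5p and miR-142-3p, of blood cells. Of the 6 oligodendrocyte names, 5 were at 0 in every library, miR-338-3p among them, and none was tested. All 3 and all 5 of these names overlap another name in the table, as the miR-24 arms do, so these zeros were not read as absence either and oligodendrocytes could not be assessed. The part of these lists in the values of miR-23 and miR-27 was not tested, and fewer cells of a type and less RNA per cell cannot be told apart in such tissue.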

How the data were processed

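Small RNA was sequenced after AGO2 immunoprecipitation in 4 olfactory bulb libraries, 2 per group. Per the labels' protocols, the kits were miRNAeasy Micro for RNA and NEBNext Multiplex Small RNA for libraries. Per the file headers, the deposited whole-number counts of primary alignments per mature miRNA name came from featureCounts (v1.4.6-p1) with an mm10 miRNA annotation and no strand option. The build mm10 and the tools STAR and cutadapt, without versions, are listed per the submitters' processing notes. Columns were tied to samples by title.

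Changes were tested over the whole table with edgeR 4.0.16 in R 4.3.3 (quasi-likelihood F test, TMM, filterByExpr with a minimum count of 10, two-sided, Benjamini-Hochberg over the 457 names tested, called under 0.05). The procedure was also run on data simulated with changes larger than those of the members. That run does not show whether changes as small as theirs can be detected. The SE of a log2 fold change is its size divided by the square root of F. The names tested held 99.88% to 99.93% of the counts. Replicates were not copies of one another (chi-square 4510 on 378 degrees of freedom in Control, 47590 on 436 in GFP-AGO2). Ratios used a pseudocount of 0.5 in log2 values and none where given as plain ratios, with exact permutation tests in scipy 1.17.1. Genes are from GENCODE M21; the start and end of 9 of 9 members were the same in RefSeq and the table. All members are named, and like patterns by the rule given with them. DESeq2 1.42.0 and the other alternatives are in the closing section. The members, lists and rules were chosen with earlier results of these data known. MiR-24-3p was left out as stated.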

Additional observations from a re-analysis of the deposited data

How the results depend on the processing

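The directions of miR-23a-3p, miR-23b-3p, miR-23b-5p and miR-27b-5p, and that they were not called, held under all alternatives that gave a value: total counts, RLE factors, DESeq2, no filter, a minimum count of 50 (only miR-27a-3p, miR-27b-3p and miR-23b-3p were left), no overlapping or multi-position names, no miR-200 or miR-183 names, the replicate block and leaving out each library. MiR-27b-3p was called with no filter (0.657), where the 457 tested miRNAs moved by a median of 0.24, and without GFP-AGO2 replicate 3 (0.552). MiR-27a-3p turned to -0.071 at a minimum count of 50. Leaving out each library gave 0.24 to 0.632 for miR-27b-3p, -0.144 to 0.219 for miR-27a-3p (it was -0.144 without Control replicate 3 and -0.067 without GFP-AGO2 replicate 1), -0.42 to -0.321 for miR-23b-3p, -1.033 to -0.215 for miR-23a-3p, -0.889 to -0.686 for miR-23b-5p and -0.843 to -0.32 for miR-27b-5p. When 1 library is left in a group, it is assumed to vary like the other group.

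Among all names tested, 79 were called higher and 78 lower. Leaving out each library gave 47 to 94 higher and 43 to 106 lower. The counts were 47 and 43 without Control replicate 1. Without Control replicate 3 they were 49 and 53. Of these calls, 60.2% were higher with total counts and 58.4% with no filter, against 50.3%. The members' share differed by 0.0271 points without the miR-200 and miR-183 names and by 0.0471 points over the TMM-scaled library size, against 0.088, and by 0.0621 to 0.114 with each library left out. The log2 ratio of miR-23b-3p to miR-23a-3p ranged from -0.202 to 0.655 with each library left out (-0.141 without Control replicate 1, -0.202 without GFP-AGO2 replicate 1). That of the mir-27a arms ranged from -1.605 to 1.447 (without Control replicate 3). The cause of these changes was not tested. With the replicate block 79 and 85 miRNAs were called, and miR-27b-3p had 0.417 (adjusted p = 0.111); deviations of same-numbered libraries had a correlation of -0.061 across 457 names, so the numbers were not taken to pair the samples. No member's call changed with the block.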
